A study of Homo sapiens with 12 samples.

Results

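The Schlafen genes are a family of 6 human genes that lie side by side on chromosome 17, named SLFN5, SLFN11, SLFN12, SLFN12L, SLFN13 and SLFN14. Members were the rows of the deposited expression table that the platform annotation assigns to these symbols. All 6 symbols had exactly 1 row each, out of 14884 genes with a named row. The rows are transcript clusters 16833327 (SLFN5), 16843404 (SLFN11), 16843417 (SLFN12), 16843446 (SLFN12L), 16843429 (SLFN13) and 16843456 (SLFN14).

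The cells were MM.1S, a long-cultured line from human multiple myeloma, profiled on 12 Affymetrix arrays, 3 in each of 4 groups, after 24 h of exposure. FPD cells received 1 nM filanesib, which blocks the mitotic motor protein KIF11, with 500 nM pomalidomide and 10 nM dexamethasone. PD cells received 500 nM pomalidomide, a cereblon-binding drug that directs IKZF1 and IKZF3 to degradation, with the glucocorticoid drug dexamethasone at 10 nM. F cells are named for filanesib alone in their titles and in the shared protocol, whereas 10 nM dexamethasone stands beside 1 nM filanesib under treatment, so whether they received the steroid is not settled here. Control cells received vehicle. All groups are 1 cell line, and pomalidomide was never given without dexamethasone, so the parts played by these drugs in PD and FPD cannot be told apart. No label ties the 3 arrays of a group to separate cultures, and every p-value below may therefore rest on technical spread.

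Values are the deposited log2 RMA values, on which a difference of 1 is a doubling of signal. Medians over all rows of an array ran from 4.23 to 4.27. Of 10 measured plasma cell markers, 8 lay above the array median on every array, SDC1, IRF4 and XBP1 among them. This was also the case for 1 of 7 myeloid markers (CD68), 3 of 5 stromal and epithelial markers (EPCAM, KRT8 and KRT18) and 6 of 7 T cell markers, so a place above the median is no proof of expression. The mean of the 10 plasma cell markers was 8.18 to 8.22 in FPD and 8.19 to 8.29 in PD, against 8.37 to 8.48 in F and 8.37 to 8.41 in control arrays. The mean of the 7 myeloid markers was 4.62 to 4.68 in FPD and 4.61 to 4.75 in PD, against 4.37 to 4.50 in F and 4.46 to 4.53 in control arrays. In each of FPD and PD 2 plasma cell markers fell and 1 myeloid marker rose against control. One of the 2 was IRF4, with log2 changes of -1.35 in FPD and -1.23 in PD. Over all genes 5.89% fell and 7.26% rose in FPD, and 8.63% fell and 6.84% rose in PD. The means of the T cell list and of the stromal and epithelial list overlapped between all groups. No marker of these lists was called in FPD or PD against control. The part of the marker shifts in the results below was not tested. FKBP5, a glucocorticoid-induced gene, had log2 levels of 7.25 ± 0.042 in FPD, 7.06 ± 0.12 in PD, 5.74 ± 0.30 in F and 5.57 ± 0.03 in control (SD, n = 3 each). It thus rose in FPD and PD (limma adjusted p = 2.33e-07 and 8.14e-07 against control), and in F the test gave an adjusted p of 0.902. KIF11, the target of filanesib, had log2 changes of 0.17 in FPD, -0.11 in PD and 0.27 in F against control, with limma adjusted p-values of 0.312, 0.555 and 0.702.

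Schlafen proteins share an amino-terminal Schlafen core with an AlbA-like fold, which in several members is an endonuclease that cuts transfer or ribosomal RNA. SLFN5, SLFN11, SLFN13 and SLFN14 are long members that carry a helicase-like domain at the carboxy terminus, which SLFN12 and SLFN12L lack. The genes are known as type I interferon-inducible in many cell types, and SLFN11 is known as a determinant of sensitivity to DNA-damaging drugs.

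The RefSeq promoter table (GRCh38.p14) held entries for 3 of the 6 members, SLFN11, SLFN12 and SLFN12L. The 250 bases before their start sites are shown because interferon, IKZF and glucocorticoid motifs are of interest in an interferon-inducible family after these drugs. The letters run 5′ to 3′ on the minus strand, on which all of them are transcribed, and capitals mark motif matches.
SLFN11, chr17:35373622-35373871: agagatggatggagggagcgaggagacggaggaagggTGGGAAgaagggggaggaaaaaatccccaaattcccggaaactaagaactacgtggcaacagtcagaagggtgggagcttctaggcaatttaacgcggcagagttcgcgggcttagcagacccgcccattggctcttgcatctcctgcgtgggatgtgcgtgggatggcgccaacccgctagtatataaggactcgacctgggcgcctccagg
SLFN12, chr17:35433175-35433424: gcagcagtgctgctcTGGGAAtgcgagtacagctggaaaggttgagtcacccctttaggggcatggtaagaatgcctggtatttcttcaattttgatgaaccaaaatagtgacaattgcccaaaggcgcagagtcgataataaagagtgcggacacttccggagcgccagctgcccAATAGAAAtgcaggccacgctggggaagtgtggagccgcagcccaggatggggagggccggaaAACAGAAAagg
SLFN12L, chr17:35537679-35537928: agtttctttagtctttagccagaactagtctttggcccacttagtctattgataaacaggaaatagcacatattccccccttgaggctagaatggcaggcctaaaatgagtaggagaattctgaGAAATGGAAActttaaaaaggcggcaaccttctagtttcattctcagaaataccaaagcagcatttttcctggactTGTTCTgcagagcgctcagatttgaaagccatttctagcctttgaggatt

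Motifs were searched on both strands of these 250 bases. The interferon-stimulated response element, searched as GAAA, any 2 bases and GAAA again, had a match in SLFN12L, GAAATGGAAA, which begins 126 bases before the start site. Of all 35116 promoter windows of this length, 3.02% held one. The shorter IRF core (AANNGAAA), which every match of the longer element contains, was found in SLFN12 and SLFN12L and in 20.3% of all windows. The Ikaros core (TGGGAA) was found in SLFN11 and SLFN12 and in 20.8% of windows. The glucocorticoid response half-site (TGTTCT) was found in SLFN12L and in 12.4% of windows. The ETS-IRF composite element, searched as GGAA, any 2 bases and GAAA, was found in none of the 3 and in 2.41% of all windows. A match is a run of letters and was not tested for binding, and none of these 3 genes passed the test in the comparisons below.

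Among the 6 genes, SLFN5 was the member that changed, and it was higher in every PD and FPD array than in any F or control array. The share of all genes for which this held was not counted. Single pairs of groups set a looser condition. Every PD array was above every control array in 13.2% of all genes and above every F array in 14.4%. Every FPD array was above every F array in 15.1%. SLFN5 encodes a long Schlafen protein found in the nucleus, where it is known to repress transcription of interferon-responsive genes. Its log2 level was 8.42, 8.40 and 8.59 in FPD cells and 8.40, 7.80 and 7.94 in PD cells, against 6.41, 6.51 and 6.64 in F cells and 6.31, 6.17 and 6.53 in control cells. The 6 arrays with pomalidomide plus dexamethasone thus began at 7.80, and the 6 without ended at 6.64. PD replicate 1 was level with the lowest FPD array, and F and control cells overlapped.

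In PD against control, SLFN5 was 3.27-fold higher (8.05 ± 0.32 in PD and 6.34 ± 0.18 in control, SD, n = 3 each; log2 change 1.71, SE 0.14, limma adjusted p = 6.91e-07). In FPD against control it was 4.39-fold higher (8.47 ± 0.10 in FPD; log2 change 2.13, SE 0.14, limma adjusted p = 6.63e-08). Ordered by log2 change over 14884 genes, SLFN5 ranked 12 in PD against control and 8 in FPD against control. These comparisons share the control arrays. Against F (6.52 ± 0.12), which may also contain dexamethasone, it rose by 1.95 in FPD (3.87-fold, limma adjusted p = 1.84e-07) and by 1.53 in PD (2.89-fold, limma adjusted p = 1.84e-06). An exact two-sided permutation test of single values gave p = 0.1 in each of these 4 comparisons, the smallest that 3 arrays against 3 allow. Setting the 6 PD and FPD arrays against the 6 F and control arrays gave an average difference of 1.83 (95% interval 1.62 to 2.04, 3.56-fold). In that comparison 11.3% of all genes rose. The exact two-sided permutation test gave p = 0.00216, the smallest that 6 against 6 allow. That p-value restates the lack of overlap given above, and the share of all genes that reach it was not counted.

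One member of 6 therefore rose in PD against control and none fell, where 6.84% of all genes tested rose. In FPD against control likewise 1 of 6 rose, where 7.26% of all genes did. In FPD against F, 1 of 6 rose beside 7.5% of all genes, and in PD against F 1 of 6 beside 7.43%. A share of 1 in 6 is a single gene and says nothing of the family as a group. The median log2 change of the 6 members was -0.006 in PD and 0.08 in FPD against control, beside -0.0027 and -0.016 over all genes.

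**Figure D1:**
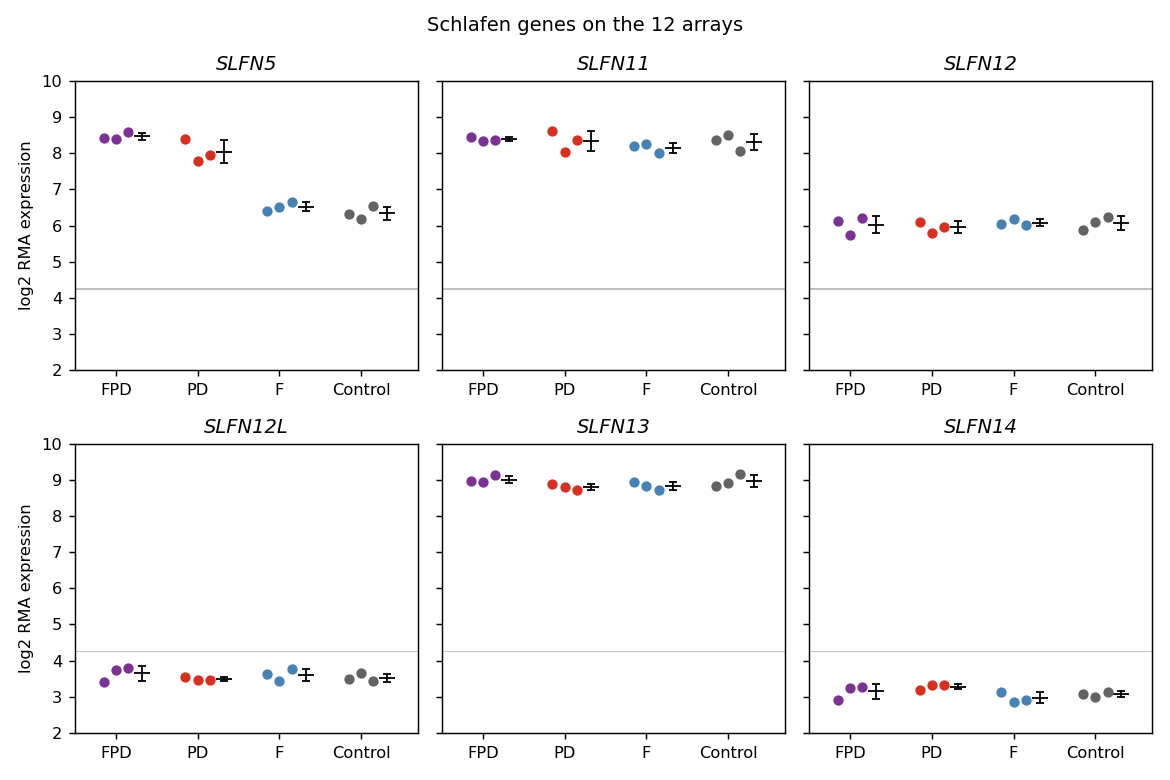
Log2 RMA expression (vertical axis) of each Schlafen gene on the 12 arrays, with FPD, PD, F and control from left to right. Points are arrays, the bar beside them is the mean ± SD (n = 3), and the grey line spans the array medians, 4.23 to 4.27. SLFN5 separates into arrays at 7.80 and above (FPD, PD) and arrays at 6.64 and below (F, control), while SLFN12L and SLFN14 lie under the grey line on all 12 arrays.

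For SLFN5, neither F against control nor FPD against PD passed the test, and F against control may also include dexamethasone. In F against control the log2 change was 0.18 (95% interval -0.11 to 0.47, limma adjusted p = 0.912), and the 2 groups overlapped. In FPD against PD it was 0.42 (95% interval 0.13 to 0.72, 1.34-fold, unadjusted p = 0.00775, limma adjusted p = 0.383). The lowest FPD array and the highest PD array had the same value to 2 decimals, 8.40, and lay apart by 0.00018. By that margin every FPD array was above every PD array, which held for 8.1% of all genes. No member was called in either comparison, where 0.00672% and 0.0336% of all genes were called (unadjusted p under 0.05 for 895 and 1283 genes, and for 0 and 1 members). The estimate in FPD against PD depended on PD replicate 1, the high PD array. The log2 change became 0.60 when PD replicate 1 was left out (limma adjusted p = 0.0933) and 0.30 when the lowest, PD replicate 2, was (limma adjusted p = 0.719).

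The average effects of the drugs and the departure from additivity take F as filanesib alone, as its title gives it. If F also received dexamethasone, they are not effects of the named drugs alone. Averaged over both backgrounds, the arrays with filanesib differed from those without by 0.30 in SLFN5 (95% interval 0.093 to 0.51, limma adjusted p = 0.314), a comparison in which 0.43% of all genes were called. The departure from additivity, FPD minus PD minus F plus control, was 0.24 for SLFN5 (95% interval -0.17 to 0.66, limma adjusted p = 0.896). No gene was called in that contrast by limma, with 833 genes at an unadjusted p under 0.05 (0% called). The order of the SLFN5 means was FPD, PD, F, control from high to low. Of the neighbours in this order only PD and F differed beyond the test's threshold.

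SLFN11, a long member that binds stalled replication forks and is known to sensitise cells to DNA-damaging agents, showed no called change. Its log2 level was 8.44, 8.34 and 8.38 in FPD, 8.61, 8.04 and 8.36 in PD, 8.19, 8.25 and 8.0 in F, and 8.36, 8.50 and 8.07 in control cells. The FPD arrays lay close together, above the F arrays and within the range of control. The log2 change was 0.08 in FPD (95% interval -0.21 to 0.36, limma adjusted p = 0.807) and 0.03 in PD (-0.26 to 0.31, limma adjusted p = 0.939) against control. In folds, the interval for PD ran from 0.834 to 1.24. FPD and F did not overlap, but the log2 change of 0.24 did not pass the test (limma adjusted p = 0.307), and 15.1% of all genes had every FPD array above every F array.

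SLFN13 encodes an endonuclease that cuts transfer and ribosomal RNA. Its log2 level was 8.98, 8.93 and 9.13 in FPD, 8.89, 8.79 and 8.71 in PD, 8.93, 8.82 and 8.73 in F, and 8.84, 8.92 and 9.15 in control cells. FPD and control were the higher groups and PD and F the lower, with overlap between all but FPD and PD and, by 0.0018, FPD and F. Among all genes, every FPD array was above every PD array in 8.1%, and above every F array in 15.1%. For SLFN13 in FPD against F the limma adjusted p was 0.303. Against control the log2 change was 0.04 in FPD (95% interval -0.18 to 0.26), -0.17 in PD (-0.39 to 0.04) and -0.14 in F (-0.36 to 0.08), with limma adjusted p-values of 0.873, 0.312 and 0.904. In FPD against PD it was 0.22 (95% interval -0.0022 to 0.43, limma adjusted p = 0.581), with FPD and PD arrays 0.043 apart. The departure from additivity was 0.36 (95% interval 0.05 to 0.67, unadjusted p = 0.0254, limma adjusted p = 0.888), the largest of the 6 members in size.

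SLFN12, a short member that turns into an active transfer RNA endonuclease when drugs such as velcrins bind it to the phosphodiesterase PDE3A, had values between 5.75 and 6.24 on the 12 arrays. The log2 level was 6.14, 5.75 and 6.20 in FPD, 6.10, 5.79 and 5.97 in PD, 6.04, 6.19 and 6.02 in F, and 5.87, 6.10 and 6.24 in control cells. All pairs of groups overlapped. The log2 change against control was -0.04 in FPD (95% interval -0.31 to 0.23, limma adjusted p = 0.904), -0.11 in PD (-0.39 to 0.16, limma adjusted p = 0.654) and 0.01 in F (-0.26 to 0.29, limma adjusted p = 0.993). PDE3A and the other 6 genes listed with it were not analysed here.

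SLFN12L and SLFN14 lay below the array median on all 12 arrays, so expression above background was not shown for either. SLFN12L ranged from 3.41 to 3.80 and SLFN14, which encodes a ribosome-associated endonuclease known from platelet biology, from 2.86 to 3.33. For SLFN12L the log2 change against control was 0.12 in FPD (95% interval -0.13 to 0.36), -0.04 in PD (-0.28 to 0.21) and 0.08 in F (-0.17 to 0.32). SLFN14 had log2 levels of 2.92, 3.25 and 3.27 in FPD, 3.19, 3.32 and 3.33 in PD, 3.14, 2.86 and 2.90 in F, and 3.08, 2.98 and 3.14 in control cells. Every PD array was above every control and F array, which held for 13.2% and 14.4% of all genes. The log2 change of SLFN14 was 0.22 in PD against control (95% interval -0.02 to 0.45, limma adjusted p = 0.232) and 0.31 in PD against F (0.08 to 0.55, limma adjusted p = 0.0635). It passed the test in PD against F without F replicate 1 (log2 change 0.40, limma adjusted p = 0.0292). Averaged over PD and FPD it was 0.20 (limma adjusted p = 0.0824), and it passed without F replicate 1 (0.24, limma adjusted p = 0.037) or without FPD replicate 1 (0.25, limma adjusted p = 0.0214).

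**Figure D2:**
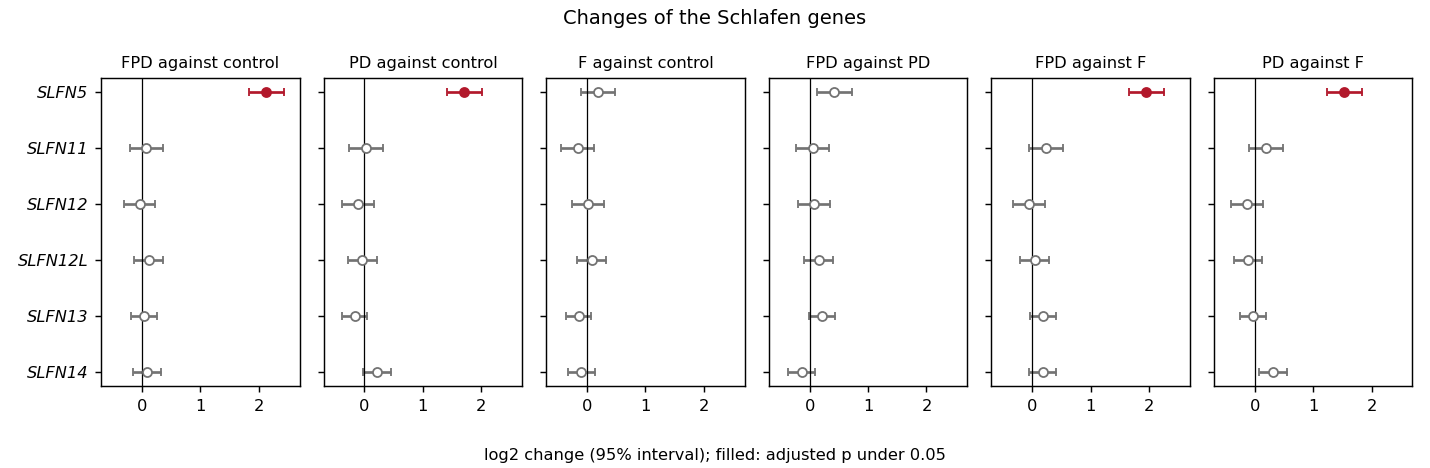
Log2 change (horizontal axis, with 95% interval from limma) of the 6 Schlafen genes (rows) in the 6 pairwise comparisons (panels). Filled red points passed an adjusted p under 0.05, and SLFN5 is the only such gene, in the 4 panels that set PD or FPD against control or F.

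The changes of SLFN5 and of the other 3 members above the array median were set side by side. For each array the log2 value of the other member was subtracted from that of SLFN5, and the 6 PD and FPD arrays were compared with the 6 F and control arrays. The average change of SLFN5 exceeded that of SLFN11 by 1.70, of SLFN12 by 1.92 and of SLFN13 by 1.83, and the PD and FPD arrays did not overlap with the others. These differences are a description, since SLFN5 had been singled out by the same arrays. Between arrays with and without filanesib the same differences were 0.36, 0.26 and 0.27, and the arrays overlapped.

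Within PD and FPD, 1 array was the highest for most members. PD replicate 1 held the highest value of its group for 5 of 6 members, all but SLFN14, and PD replicate 2 the lowest for 4. FPD replicate 3 was highest for 5 of 6, all but SLFN11. This is given as a description without a test. The rise of SLFN5 was present without PD replicate 1 (log2 change 1.53 against control, limma adjusted p = 2.28e-06) and without FPD replicate 3 (2.07, limma adjusted p = 1.28e-06).

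The genomic surroundings were examined next, since the 6 genes adjoin each other with no other measured gene between them. SLFN5 lies at one end of the row, next to UNC45B, and SLFN14 at the other, next to GAS2L2. Of the 10 nearest measured genes on either side, 20 in all, none rose and 1 fell in PD against control, with a median log2 change of -0.08. Without PD replicate 3, CCL8, a chemokine gene, was also called (log2 change 0.41, limma adjusted p = 0.0422, against 0.28 and 0.175 with all arrays). In FPD against control again none rose and 1 fell, with a median of -0.02. Of all genes 8.63% fell and 6.84% rose in PD, and 5.89% fell and 7.26% rose in FPD. The gene that fell was NLE1, a factor of ribosome assembly, with a log2 change of -0.50 in PD (limma adjusted p = 0.00283) and -0.55 in FPD (limma adjusted p = 0.00175). UNC45B, a myosin chaperone gene and the nearest neighbour of SLFN5, had log2 changes of -0.19 in FPD and -0.11 in PD (limma adjusted p = 0.302 and 0.584).

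**Figure D3:**
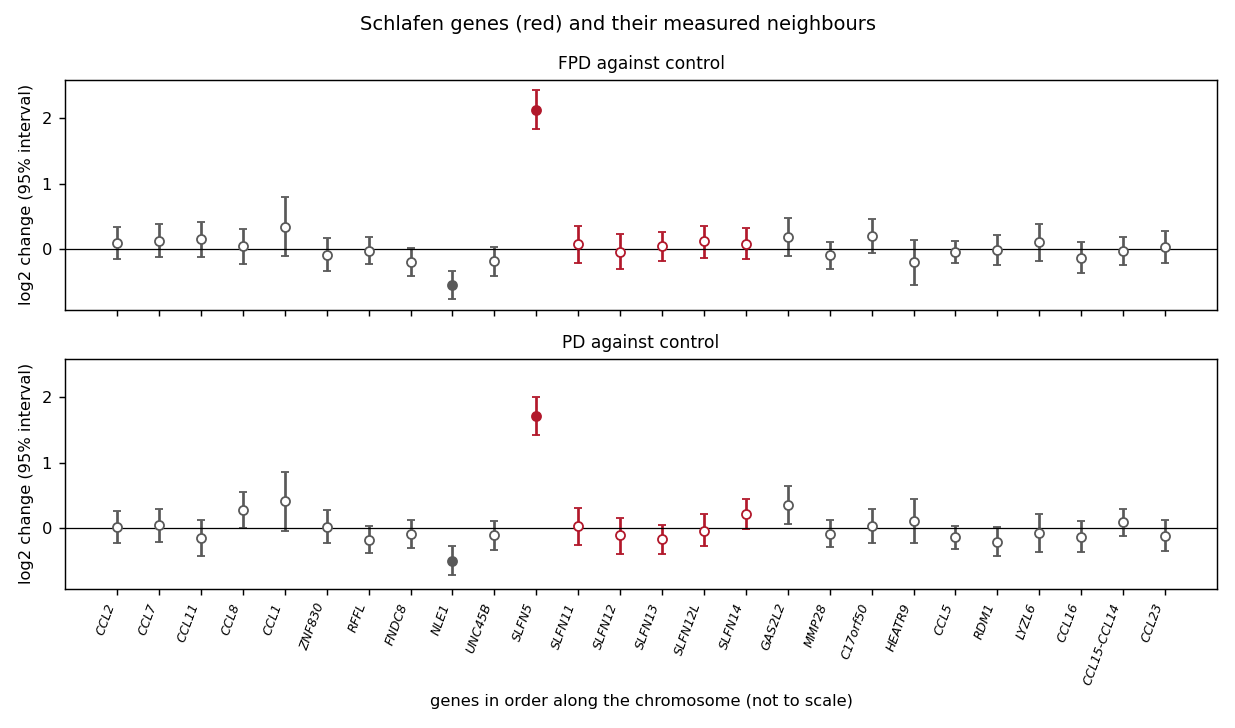
Log2 change with 95% interval (vertical axis) of the 6 Schlafen genes (red) and the 10 nearest measured genes on either side (grey), in order along the chromosome and not to scale, in FPD (top) and PD (bottom) against control. Filled points passed an adjusted p under 0.05. SLFN5 stands at 2.13 and 1.71, and the only other filled point is NLE1 at -0.55 and -0.50.

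Interferon-stimulated genes were counted beside the Schlafen genes because the family is known as interferon-inducible. Of 37 measured, 13 rose and 2 fell in FPD against control, and 13 rose and 3 fell in PD against control. The shares over all genes were 7.26% and 5.89% in FPD, and 6.84% and 8.63% in PD. Beside medians over all genes of -0.016 in FPD and -0.0027 in PD, the median log2 change of the list was 0.23 and 0.15. The genes that rose most were ISG20, an RNA exonuclease (log2 change 1.43 in FPD and 1.37 in PD), IFIT3, an antiviral effector (1.39 and 1.24), and DTX3L, a ubiquitin ligase (1.21 and 1.20). IFIT3 stood at 3.82 in control, below the array median. The log2 change of SLFN5, 2.13 and 1.71, lay above each of the 37. This is a description, since SLFN5 was singled out by these arrays and ranked 8 in FPD and 12 in PD over all genes. The chemokine gene CXCL10 fell by 2.16 in FPD and fell by 2.44 in PD (limma adjusted p = 1.42e-05 and 3.66e-06). HERC5, the ligase of ISG15, fell by 0.47 in FPD and by 0.52 in PD, a call lost in FPD without control replicate 2 (limma adjusted p = 0.054) or FPD replicate 2 (0.0573). ISG15 itself, a ubiquitin-like modifier, had log2 changes of -0.06 in FPD (limma adjusted p = 0.834) and 0.04 in PD (limma adjusted p = 0.894), and IFIT1 stood at 2.63 in both, against 2.62 in control. These IFIT1 levels lay below the array medians, so expression of IFIT1 above background was not shown. In F no member of the list was called.

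Among 20 measured genes of interferon signalling and lymphoid transcription factors, 8 rose and 1 fell in each of FPD and PD against control. IRF7 rose in each and was also counted among the interferon-stimulated genes. Its call was lost under 11 of 13 alternative settings in FPD and 5 of 13 in PD. The count that rose was 3 or 4 in FPD without any one FPD or control array, and 3 to 5 in PD without any one control array or PD replicate 1 or 3. Over all genes, 7.26% rose and 5.89% fell in FPD, and 6.84% rose and 8.63% fell in PD. STAT3, a transcription factor of cytokine signalling, rose by 0.87 in FPD and 0.85 in PD. JAK2, a kinase upstream of it, rose by 0.98 and 0.80, and the interferon gamma receptor gene IFNGR1 by 0.93 and 0.65. IRF4, a factor on which myeloma cells depend, fell by 1.35 in FPD and by 1.23 in PD (10.09 ± 0.03 in FPD, 10.21 ± 0.13 in PD and 11.44 ± 0.06 in control, SD, n = 3 each; limma adjusted p = 6.63e-08 and 2.2e-07). IRF9, the DNA-binding subunit of the interferon-activated complex ISGF3, had log2 changes of 0.34 and 0.33 (limma adjusted p = 0.208 and 0.211). Transcripts of the drug target IKZF1 rose by 0.37 in FPD and 0.33 in PD, and those of CRBN, which encodes cereblon, by 0.32 and 0.33. These 4 calls had limma adjusted p-values of 0.0192 to 0.0341 and depended on single arrays. That of IKZF1 was lost in FPD without control replicate 1 or 2 or FPD replicate 1 or 3 (0.0525 to 0.0912), and in PD without control replicate 1 or 2 or PD replicate 1 (0.0768 to 0.122). That of CRBN was lost in FPD without any one control array or FPD replicate 2 or 3 (0.0662 to 0.136), and in PD without control replicate 2 or 3 or PD replicate 1 or 3 (0.0678 to 0.0865). IKZF3 had log2 changes of 0.08 in FPD and 0.42 in PD (limma adjusted p = 0.871 and 0.196).

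Replication checkpoint genes were counted because SLFN11 is known to act at stalled forks. Of 22 measured, 6 fell and 1 rose in FPD, and 15 fell and none rose in PD against control, with median log2 changes of -0.24 and -0.36. The medians over all genes were -0.016 and -0.0027. In FPD 5.89% of all genes fell and 7.26% rose, and in PD 8.63% fell and 6.84% rose. The count of 6 in FPD was 3 without FPD replicate 2. ATRIP, WEE1, RAD17, ETAA1, CUL4A and TOP1 passed the test in neither, with log2 changes of -0.16 to 0.056 in FPD and -0.23 to 0.053 in PD. TIPIN, a fork protection factor, fell by 1.11 in FPD and by 1.31 in PD (limma adjusted p = 6.88e-06 and 1.24e-06). MCM3, a subunit of the replicative helicase, fell by 0.68 in both, and the RNA and DNA helicase gene DHX9 by 0.56 and by 0.64. TOP2A, the mitotic topoisomerase, rose by 0.56 in FPD (limma adjusted p = 0.000236), and its value in PD was 0.20 (limma adjusted p = 0.119). The checkpoint kinase gene CHEK1 fell in PD (log2 change -0.61, limma adjusted p = 0.00077), and in FPD its value was -0.25 (limma adjusted p = 0.142). None of the 22 was called in FPD against PD, the test of that difference, and TOP2A was called in the average effect of filanesib (0.31, limma adjusted p = 0.0294).

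Against control, 7.26% of all genes rose and 5.89% fell in FPD, and 6.84% rose and 8.63% fell in PD. Of 18 measured RNA-cutting, transfer RNA and antiviral RNA-sensing factors, 3 rose and 2 fell in FPD, and 3 rose and 5 fell in PD against control. Of those called, ISG20 and RIGI, which rose, and EIF2AK2, which fell in PD, were also counted among the interferon-stimulated genes. The call of EIF2AK2 was lost under 9 of 13 alternative settings. The count that fell was 1 in FPD without control replicate 1 or 3 or FPD replicate 2. In PD it was 3 without control replicate 1 or 2, and 2 without control replicate 3 or PD replicate 3. The 3 that rose were ISG20, the RNA sensor gene RIGI (0.64 in FPD and 0.73 in PD) and EIF2AK4, which encodes the kinase GCN2 that responds to uncharged transfer RNA (1.23 in FPD, limma adjusted p = 4.9e-07, and 1.22 in PD, limma adjusted p = 5.23e-07). TRMT1, a transfer RNA methyltransferase, fell by 0.46 and by 0.47. GCN1, which activates GCN2, fell by 0.42 and by 0.50 (limma adjusted p = 0.0365 and 0.0117), calls lost without control replicate 3 (limma adjusted p = 0.154 and 0.0638). The call in FPD was also lost without control replicate 1 (0.0658) or FPD replicate 2 (0.189). Of 7 measured genes listed as SLFN5 targets from work on other cell types, 1 rose and none fell. It was SNAI2, a transcription factor of mesenchymal cells (0.88 in FPD, limma adjusted p = 0.00124, and 0.51 in PD, limma adjusted p = 0.0382). Its control level of 3.87 was below the array median, and its PD call was lost without control replicate 2 (0.0625) or 3 (0.162) or PD replicate 3 (0.183). ZEB1, a gene that SLFN5 is reported to repress, had log2 changes of -0.25 and -0.10 (limma adjusted p = 0.161 and 0.649).

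**Figure D4:**
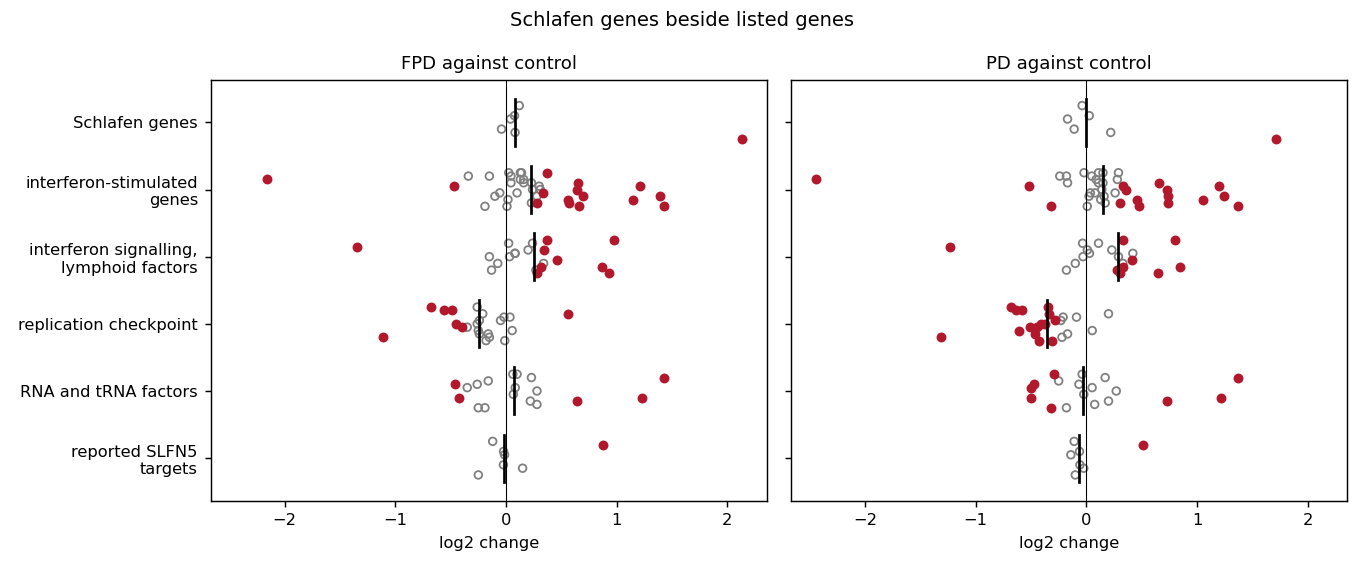
Log2 change (horizontal axis) of the 6 Schlafen genes and of the measured genes of 5 lists (rows) in FPD (left) and PD (right) against control. Each point is a gene, filled red where the adjusted p was under 0.05, and black bars are medians. SLFN5 lies at 2.13 and 1.71, apart from the other 5 Schlafen genes near 0, and the replication checkpoint list has its median below 0 in both panels.

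The genes whose levels followed SLFN5 most closely over the 12 arrays were EPB41L4A (Pearson r = 0.991), BCAS3 (r = 0.984), IQGAP3 (r = 0.983), NF1 (r = 0.981) and TRANK1 (r = 0.981). These correlations are descriptive, since the arrays form a high and a low set and any gene with the same step would score highly. EPB41L4A had log2 levels of 7.11 ± 0.13 in FPD, 6.93 ± 0.31 in PD, 5.59 ± 0.18 in F and 5.40 ± 0.11 in control (SD, n = 3 each). IQGAP3, a scaffold protein of proliferating cells, had 8.07 ± 0.12 in FPD, 7.57 ± 0.11 in PD, 6.65 ± 0.15 in F and 6.39 ± 0.16 in control (SD, n = 3 each). NF1, the negative regulator of RAS, had log2 changes of 0.86 in FPD and 0.84 in PD. The log2 changes of all 5 were smaller than those of SLFN5 in both comparisons, from 0.86 to 1.71 in FPD and from 0.84 to 1.53 in PD. That too is a description, as SLFN5 ranked 8 and 12 over all genes.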

How the data were processed

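The deposited table holds log2 expression values of 12 arrays. Per the submitters' processing notes, the authors used RMA in Affymetrix Expression Console; no version is given in the sources used here. RMA sets arrays to a common distribution and compresses low signals, so changes of weakly expressed genes are understated. Rows were named from the platform annotation (16098 of 53617 rows had 1 gene), and the row with the highest mean stood for a gene. No filter on expression was used. A model of the 4 group means was fitted to all 14884 genes with limma 3.58.1 in R 4.3.3, with Benjamini-Hochberg adjustment across all of them. A change is an adjusted p under 0.05, and "rose" or "fell" refers to it. Groups came from the sample titles. Tested on simulated data, the model recovered large changes and missed most small ones. The simulation changed far fewer genes than were called in PD against control, so the share it recovered need not hold there. An uncalled small difference is still not evidence of none. The number of arrays limits precision. No batch label was given. The genome build of the array annotation was not given, and RefSeq GRCh38.p14 was used for gene order and promoter letters only.

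The members and lists were chosen with earlier results of these data known, so no p-value was adjusted over a list and no list was tested as a set. Named genes were all members and genes drawn from 9 fixed by name, the 3 highest and 3 lowest called genes of each list in PD and FPD against control, called neighbours, and the 5 genes most correlated with SLFN5. ISG15, IFIT1, CHEK1, ATRIP, WEE1, RAD17, ETAA1, CUL4A, TOP1, CCL8, ZEB1, UNC45B and GAS2L2 were named outside that rule, after their values were seen.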

Additional observations from a re-analysis of the deposited data

How the results depend on the processing

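SLFN5 kept its direction and its call in PD and FPD against control and against F under every alternative run, with log2 changes of 1.53 to 1.84 in PD and 2.05 to 2.23 in FPD against control. Of 774 values of the 54 combinations of member and comparison under alternative settings, 3 changed a call, all of SLFN14, and 42 changed sign, none of them called. After a second quantile normalization SLFN11 stood at -0.006 in FPD against PD and SLFN13 at 0.048 in PD against F. The other 40 changes of sign came from leaving out 1 array, in 19 results. The ranges then were -0.11 to 0.17 (SLFN11) and -0.083 to 0.021 (SLFN12L) in PD against control; -0.087 to 0.10 (SLFN12) and -0.0013 to 0.17 (SLFN12L) in F against control; -0.043 to 0.17 (SLFN11), -0.14 to 0.10 (SLFN12) and -0.024 to 0.13 (SLFN13) in FPD against control. They were -0.10 to 0.19 (SLFN11) and -0.009 to 0.21 (SLFN12) in FPD against PD; -0.14 to 0.084 (SLFN12) and -0.048 to 0.16 (SLFN12L) in FPD against F; and -0.08 to 0.019 (SLFN13) in PD against F. For the average effect of pomalidomide plus dexamethasone they were -0.043 to 0.061 (SLFN12L) and -0.028 to 0.05 (SLFN13), for that of filanesib -0.13 to 0.011 (SLFN11) and -0.0059 to 0.11 (SLFN12), and for the departure from additivity -0.026 to 0.20 (SLFN12), -0.0095 to 0.20 (SLFN12L) and -0.10 to 0.078 (SLFN14). Values so near 0 have no settled direction.

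Counts over all genes moved where few genes were called. F against control had 1 call, and 32 over all rows, 0 among genes above the median mean (unadjusted p under 0.05 for 582), 4 with a trended variance and 0 to 2 without single arrays. FPD against PD had 5 calls, and 0 with the mean of rows (unadjusted p under 0.05 for 1303), 94 over all rows, 20 above the median mean, 31 with a trended variance, 8 in the compared arrays alone and 0 to 15 without single arrays. Over all rows, 4142 were called in PD against F, 5775 for the average effect of pomalidomide plus dexamethasone and 216 for that of filanesib, which had 24 to 64 without single arrays. Schlafen members called were 1 to 2 without single arrays in PD against F and in the average effect of pomalidomide plus dexamethasone. With the arrays quantile normalized again, 1368 genes were higher and 1186 lower in PD against F, in place of 1106 and 1475. Listed genes called in PD against control ranged over alternatives from 3 to 8 higher (interferon signalling) and 9 to 15 lower (replication checkpoint), and in FPD from 3 to 9 higher and 3 to 9 lower. For RNA-cutting and transfer RNA factors 2 to 6 were lower in PD and 1 to 3 in FPD, and for interferon-stimulated genes 9 to 14 were higher in PD and 10 to 13 in FPD. SLFN5 targets called higher were 0 to 1 in both, and genomic neighbours called higher were 0 to 1 in PD.

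Deviations from the group means correlated over genes at r = -0.256 to 0.158 between same-numbered arrays, and at -0.203 to 0.234 between differently numbered ones. Same-numbered arrays of F and FPD had r of 0.083 to 0.124, and those of control and PD -0.256 to -0.006. Whether the numbers pair arrays is therefore not settled. With the replicate number as a block, 0 genes were called in F against control and 0 in FPD against PD (limma, unadjusted p under 0.05 for 910 and 1295), and SLFN5 had an adjusted p of 2.61e-06 in PD and 4.01e-07 in FPD against control.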
